A study of Homo sapiens with 12 samples.

Results

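The genes described here encode the trefoil factors and proteins made with them by mucus-secreting epithelium, and were chosen by symbol from the deposited table: TFF1, TFF2, TFF3, AGR2, AGR3, SPDEF, REG4, LCN2, FCGBP and ANXA10. The choice was made with earlier results of these data known. All 10 were among the 23346 genes of the table and all 10 were above 0 in at least 1 sample. A total of 7 had a mean of at least 0.1 RPKM over all samples and were tested, whereas TFF3, AGR3 and REG4 were below this level. RPKM is a read count scaled to the length of the gene and to the depth of the library.

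Trefoil factors are small secreted peptides held together by disulphide bonds, which are released with mucins onto the surface of the stomach and intestine. TFF1 belongs to the surface cells of the stomach, TFF2 to gastric gland mucous cells and TFF3 to goblet cells. AGR2 and AGR3 are members of the protein disulphide isomerase family, and AGR2 assists the folding of mucins in the endoplasmic reticulum. SPDEF is an ETS family transcription factor that promotes the maturation of goblet and other mucus cells. Normal pancreatic ducts make little of the gastric-type products, which are found in precursor lesions and in well differentiated pancreatic adenocarcinoma.

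SW1990 and CFPAC-1 are established human pancreatic adenocarcinoma cell lines, whose RNA was sequenced after sorting of cultures with the GCTM-5 antibody, which binds a surface antigen of duct cells. Each line gave 3 samples of GCTM-5 positive and 3 of GCTM-5 negative cells from triplicate sorts, for 12 samples in 4 groups. Whether a positive and a negative sample came from the same sort is not stated. Cells of strong staining and cells without staining were gated, and no group received a drug or a genetic change. Each line stands for a single tumour, so line, culture and donor cannot be told apart in a comparison between lines.

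Libraries held 9969697 reads (CFPAC-1 positive replicate 3) to 26159330 reads (CFPAC-1 positive replicate 1), as recovered from the RPKM values. Markers of duct epithelium were expressed in all groups, with summed levels of 1595 to 8162 RPKM over the samples and 6 of 7 genes at a mean of at least 1 RPKM in each group. CFTR, a further duct marker, was at 0 in SW1990 and at most 0.0869 RPKM in CFPAC-1. Calls within a line needed a change above 2-fold and an unadjusted p under 0.01, the thresholds of the study, in limma on log2(RPKM + 0.1) over 16236 genes. P-values were adjusted over these genes by the Benjamini-Hochberg method. An exact permutation test of 3 against 3 samples cannot give a p below 0.1.

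GCTM-5 positive SW1990 cells had higher levels of 5 of the 7 genes tested: TFF1, TFF2, AGR2, SPDEF and LCN2. Over all genes, 4.59% were called higher in positive SW1990 cells. Since the genes were chosen with earlier results of these data known, comparisons of the 7 with all genes are descriptions and not tests. None of the 7 was called lower by limma, where 7.48% of all genes were. FCGBP and ANXA10 had lower values with an unadjusted p under 0.05, and voom on recovered reads called FCGBP lower. The median log2 change of the 7 genes was 1.87, against -0.04 over all genes, and it was also 1.87 with TFF1 at its lower bound. In CFPAC-1, only TFF1 and ANXA10 of the 7 were called higher, with 5.65% of all genes, and none was called lower by limma, with 4.13% of all genes. SPDEF, LCN2 and FCGBP had lower values with an unadjusted p under 0.05 there, and voom called FCGBP lower. The median log2 change there was -0.45, against 0.05 over all genes. In these bulk samples, fewer cells expressing a gene and less RNA per cell cannot be told apart.

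**Figure D1:**
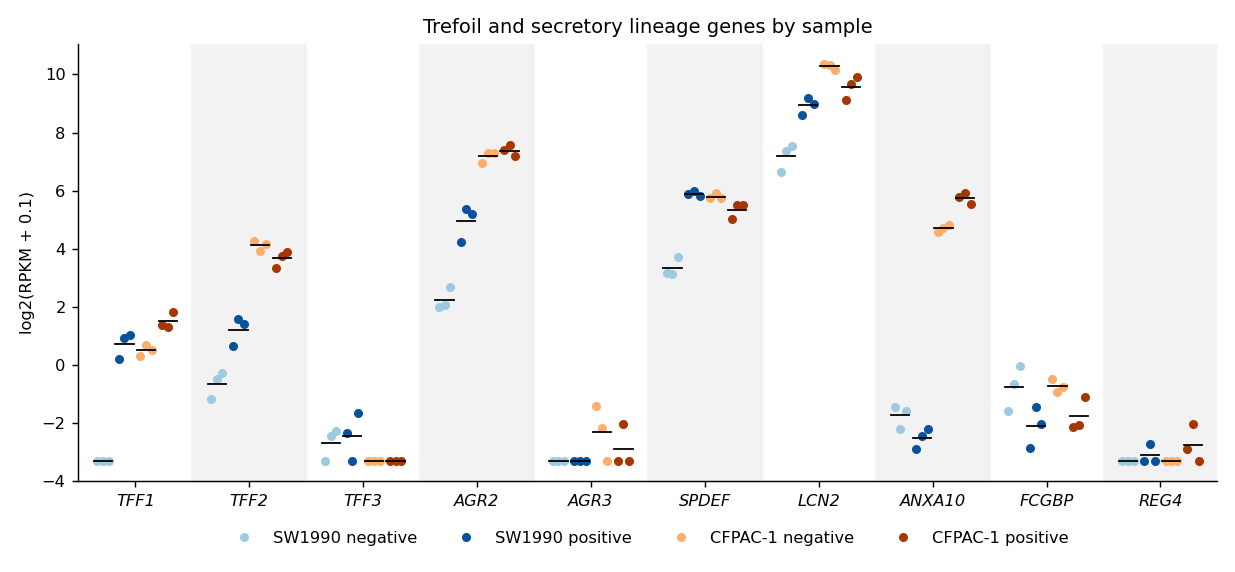
Level of each gene in each sample as log2(RPKM + 0.1), with points for the 3 samples of each group, coloured by line and GCTM-5 staining, and black bars for the group means. A value of 0 RPKM lies at the bottom of the axis, where all SW1990 negative samples of TFF1 are found, and LCN2 is the highest of the 10 genes in all 4 groups.

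The trefoil genes lie side by side on chromosome 21 (GRCh37, minus strand), within 54.9 kb: TFF3 at chr21:43731777-43735519, TFF2 at chr21:43766466-43771106 and TFF1 at chr21:43782391-43786644. TFF1 had no reads in the 3 negative SW1990 samples. Positive SW1990 samples were at 1.05, 1.80 and 1.95 RPKM, on 10 to 17 reads each. Positive SW1990 cells were therefore at least 5.31-fold higher, computed against 3 reads in each negative library. The fitted log2 change was 4.04 (standard error 0.25, adjusted p = 3.56e-07, limma), a value that depends on the 0.1 added before taking log2. TFF1 in CFPAC-1 was at 1.15, 1.49 and 1.33 RPKM in negative samples and at 2.49, 2.38 and 3.47 RPKM in positive samples. The positive samples all lay above the negative ones, with a log2 change of 1.01 (standard error 0.25, adjusted p = 0.00802, limma). TFF1 was the only gene of the 7 called higher in both lines, as 0.591% of all genes were. Its CFPAC-1 change lay at the 2-fold threshold and was not called with each sample centred on its median (0.91), without negative replicate 1 (0.92) or without positive replicate 3 (0.84). The call was also lost with quantile normalization, with 1 in place of 0.1 added to each value and with voom on recovered reads.

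TFF2 followed another order of levels. Negative SW1990 samples were at 0.344, 0.608 and 0.720 RPKM and positive samples at 1.46, 2.92 and 2.55 RPKM, a log2 change of 1.87 (standard error 0.27, adjusted p = 0.000286, limma). All positive SW1990 samples lay above all negative ones. CFPAC-1 samples were far higher, at 19.1, 15.1 and 17.7 RPKM in negative and 10.1, 13.5 and 14.6 RPKM in positive cells. Positive CFPAC-1 samples lay below the negative ones, but the log2 change of -0.45 (95% interval -1.05 to 0.15, adjusted p = 0.22, limma) was not called.

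TFF3 was close to absent at the depth of these libraries. It had no reads in the 6 CFPAC-1 samples, which allows up to 0.293 RPKM in a negative and up to 0.573 RPKM in a positive sample, taking 3 reads as the limit of a count of 0. In SW1990, each sample held 0 to 2 TFF3 reads, with a highest value of 0.214 RPKM in a positive sample. Counting error is all that such limits cover, as PCR copies of a molecule are counted separately.

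The group means of AGR2 spanned 35.2-fold. It lies on the minus strand at chr7:16831435-16873057 of GRCh37, with 26.0 kb between its annotated interval and that of AGR3. AGR2 was at 3.86, 4.11 and 6.27 RPKM in negative SW1990 samples and at 18.8, 41.3 and 36.7 RPKM in positive samples. The lowest positive sample was thus above the highest negative one, and the log2 change was 2.70 (standard error 0.26, adjusted p = 1.25e-05, limma). The CFPAC-1 negative samples were at 125, 158 and 158 RPKM and positive samples at 168, 189 and 145 RPKM. These groups overlapped, with a log2 change of 0.18 (95% interval -0.39 to 0.76, adjusted p = 0.625, limma). AGR3, at chr7:16899036-16921611, had no reads in SW1990, which allows up to 0.473 RPKM. It was above 0 in 3 of the 6 CFPAC-1 samples, at most 0.274 RPKM, on at least 1 to 2 reads each. The AGR3 length that gave whole reads, 374 bases, is shorter than its longest annotated transcript of 738 bases, so these reads may be too low by a common factor.

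SPDEF lies on the minus strand at chr6:34505579-34524110 of GRCh37. Negative SW1990 samples were at 8.92, 8.60 and 13.1 RPKM, and positive samples at 58.3, 62.9 and 55.6 RPKM. The mean rose from 10.2 ± 2.50 to 58.9 ± 3.70 RPKM (SD, n = 3 each), a log2 change of 2.54 (standard error 0.16, adjusted p = 4.92e-07, limma). Positive SW1990 cells thereby reached the level of negative CFPAC-1 cells, whose samples were at 53.3, 59.8 and 53.3 RPKM and overlapped with them. Positive CFPAC-1 samples were at 32.6, 45.6 and 45.0 RPKM, each below every negative sample. That log2 change of -0.45 (standard error 0.16, adjusted p = 0.0489, limma) was under the fold change threshold.

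LCN2, which encodes a secreted lipocalin that binds iron-carrying siderophores, was the most abundant of the 10 genes and made up 67.5% to 92.2% of their summed RPKM in a sample. It lies on the plus strand at chr9:130911350-130915732 of GRCh37. SW1990 samples were at 99.7, 166 and 186 RPKM in negative cells and at 391, 590 and 506 RPKM in positive cells. Every positive SW1990 sample exceeded every negative one, and the log2 change was 1.75 (standard error 0.25, adjusted p = 0.000222, limma). CFPAC-1 samples were at 1318, 1268 and 1148 RPKM in negative cells and at 556, 806 and 961 RPKM in positive cells. Here the highest positive sample was below the lowest negative sample, with a log2 change of -0.72 (95% interval -1.26 to -0.18, adjusted p = 0.0399, limma) that did not pass the thresholds for a call.

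ANXA10, which encodes an annexin found in gastric epithelium, separated the lines. It lies on the plus strand at chr4:169013688-169108887 of GRCh37. CFPAC-1 samples were at 23.8, 25.9 and 28.3 RPKM in negative cells and at 54.8, 59.8 and 45.9 RPKM in positive cells. Positive CFPAC-1 samples all exceeded negative ones, with a log2 change of 1.04 (standard error 0.22, adjusted p = 0.00402, limma). As for TFF1, this change lay near the 2-fold threshold and was not called with each sample centred on its median (0.94), without negative replicate 1 (0.97) or without positive replicate 2 (0.95). The call was also lost with quantile normalization or with 0.01 in place of 0.1 added to each value. In SW1990, ANXA10 was at 0.269, 0.119 and 0.234 RPKM in negative samples and at 0.0356, 0.0814 and 0.117 RPKM in positive samples. These values rest on 18 reads in all negative and 6 reads in all positive samples, a ratio of 2.64 of negative to positive at equal depth (exact binomial 95% interval 1.00 to 8.12). That interval pools the reads of a group, so it covers counting error only and not the spread between samples. The fitted log2 change of -0.78 (standard error 0.22, adjusted p = 0.0211, limma) was not called. It was called without negative SW1990 replicate 2 (-1.01) and with 0.01 in place of 0.1 added to each value (-1.35, adjusted p = 0.0163), and was -0.16 with 1 added (adjusted p = 0.343).

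FCGBP encodes a large Fc-binding protein of mucus and lies at chr19:40353963-40440533 of GRCh37. It was low in all groups. SW1990 samples were at 0.235, 0.535 and 0.883 RPKM in negative cells and at 0.0377, 0.262 and 0.145 RPKM in positive cells. The groups overlapped, since the highest positive sample was above the lowest negative one. CFPAC-1 samples were at 0.621, 0.427 and 0.490 RPKM in negative cells and at 0.126, 0.140 and 0.361 RPKM in positive cells, with no overlap. The log2 changes were -1.37 in SW1990 (standard error 0.45, adjusted p = 0.041, limma) and -1.05 in CFPAC-1 (standard error 0.45, adjusted p = 0.0879), and neither was called. Over the alternatives they ranged from -2.09 to -0.42 in SW1990 and from -1.61 to -0.33 in CFPAC-1. The levels of FCGBP are close to the 0.1 added before taking log2. The SW1990 change was called without negative SW1990 replicate 1 (-1.78) and without positive SW1990 replicate 2 (-1.69), and also, at -1.37, without positive CFPAC-1 replicate 3, which enters only the shared estimate of the spread. It was also called with the replicate number as a block and by voom on recovered reads, and the CFPAC-1 change was called by voom alone. REG4, a secreted lectin of the regenerating family, was at 0 in both negative groups, which allows up to 0.150 RPKM, and reached 0.141 RPKM in a positive CFPAC-1 sample on 3 reads.

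Positive and negative samples did not overlap for 6 of the 7 genes in SW1990 (all but FCGBP) and for 6 of the 7 in CFPAC-1 (all but AGR2). Over all genes, 43.3% did not overlap in SW1990 and 48.5% in CFPAC-1. Leaving out single samples did not end the SW1990 calls of TFF1, TFF2, AGR2, SPDEF or LCN2.

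**Figure D2:**
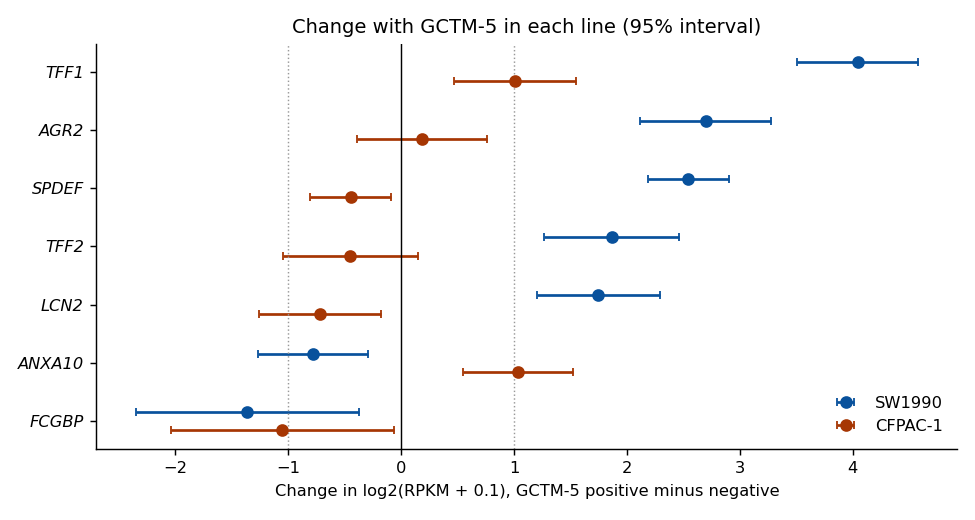
Change in log2(RPKM + 0.1) from GCTM-5 negative to positive cells for the 7 genes tested, in SW1990 (blue) and CFPAC-1 (brown), with 95% intervals from limma and dotted lines at a 2-fold change. The SW1990 changes of TFF1, AGR2, SPDEF, TFF2 and LCN2 range from 1.75 to 4.04, and the CFPAC-1 changes of all 7 genes from -1.05 to 1.04.

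The changes differed between the lines for 6 of the 7 genes. The change was larger in SW1990 for TFF1, TFF2, AGR2, SPDEF and LCN2, as it was for 9.16% of all genes at an adjusted p under 0.05, and smaller in SW1990 for ANXA10, as it was for 17.8% of all genes. The difference, SW1990 minus CFPAC-1 on the log2 scale, was 3.03 for TFF1 (standard error 0.35, adjusted p = 9.64e-05, limma) and 2.99 for SPDEF (standard error 0.23, adjusted p = 7.85e-06). It was 2.51 for AGR2, 2.47 for LCN2 and 2.32 for TFF2, with adjusted p-values of 0.000511, 0.000384 and 0.0011 (limma). For ANXA10 it was -1.81 (standard error 0.32, adjusted p = 0.0014, limma). FCGBP did not pass the test, with a difference of -0.31 (95% interval -1.71 to 1.09, adjusted p = 0.76, limma). The median difference of the 7 genes was 2.47, or 2.32 with TFF1 at its bound in SW1990, against -0.15 over all genes. Centring each sample on its median brought the median over all genes to 0.00, and the 6 differences were still called.

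Between the lines, negative SW1990 cells were lower than negative CFPAC-1 cells for 6 of the 7 genes (TFF1, TFF2, AGR2, SPDEF, LCN2 and ANXA10), as were 15.0% of all genes, and higher for none by limma or voom, as were 21.9% of all genes. The ratio of CFPAC-1 to SW1990 mean RPKM in negative cells was 31.1 for TFF2, 31.0 for AGR2, 8.26 for LCN2 and 5.44 for SPDEF, and TFF1 was at least 4.38-fold higher in CFPAC-1. For ANXA10 the same ratio, taken from pooled reads at equal depth, was 128 (exact binomial 95% interval 81.1 to 217). Among positive cells, 3 of the 7 genes were lower in SW1990, where 13.7% of all genes were, and none was called higher by limma or voom, where 14.8% were. These were TFF2 with a log2 difference of -2.45 (adjusted p = 9.45e-06, limma), AGR2 with -2.44 (adjusted p = 7.20e-06) and ANXA10 with -8.25 (adjusted p = 6.78e-11). The ANXA10 value rests on 6 SW1990 reads and depends on the 0.1 added, with a range of -9.36 to -5.65 over the alternatives. From pooled reads at equal depth, ANXA10 was 716 times as high in positive CFPAC-1 as in positive SW1990 cells (exact binomial 95% interval 329 to 1952). The ANXA10 intervals from pooled reads, in negative and in positive cells, cover counting error only and not the spread between samples. TFF1 differed by -0.79 and LCN2 by -0.63 between positive cells (adjusted p = 0.015 and 0.0438, limma), and SPDEF by 0.54 in the other direction (adjusted p = 0.0128), all under the fold change threshold. FCGBP passed neither test between lines, with log2 differences of -0.03 (95% interval -1.02 to 0.95) in negative and -0.34 (95% interval -1.33 to 0.64) in positive cells.

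The order of the groups from high to low therefore differed from gene to gene. TFF2 and LCN2 were highest in negative CFPAC-1 cells, then positive CFPAC-1, positive SW1990 and negative SW1990 cells, and for LCN2 the samples of the middle groups overlapped. AGR2 had overlapping CFPAC-1 groups at the top and the same order in SW1990. TFF1 was highest in positive CFPAC-1 cells, followed by positive SW1990 and negative CFPAC-1 cells, which overlapped. SPDEF had positive SW1990 and negative CFPAC-1 cells at the top, and only negative SW1990 cells were far below, so that its means spanned 5.78-fold. FCGBP was highest in both negative groups, which overlapped, as did both positive groups.

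When each gene was centred on its own mean log2 value, TFF2 and AGR2 were the members with the most similar pattern over the 12 samples, at a mean absolute difference of 0.38 on the log2 scale. SPDEF and LCN2 followed at 0.51, and SPDEF and ANXA10 were furthest apart at 3.19. Among 13261 other genes at a mean of at least 1 RPKM, those most like LCN2 were SPINT1, which encodes a membrane inhibitor of serine proteases, at a mean absolute difference of 0.06, KIF13B at 0.16 and TTC9 at 0.21. SPINT1 was at 21.0, 67.4, 176 and 112 RPKM in negative SW1990, positive SW1990, negative CFPAC-1 and positive CFPAC-1 cells (means of 3 samples). SPDEF was most like RAB17 (0.15), ADAP1 (0.17) and CD22 (0.21), AGR2 most like SLC27A2 (0.18), ARHGEF38 (0.27) and ENPP5 (0.29), and TFF2 most like FA2H (0.19), SLC15A1 (0.22) and MPP7 (0.28). TFF1 was most like RNF223 (0.23), TMEM125 (0.25) and TMEM30B (0.28), and ANXA10 most like HPGD (0.31), SFTA2 (0.37) and SFRP1 (0.37). These are descriptions over samples that fall into 4 groups and share a line.

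The bases before the start of transcription are shown for AGR2, SPDEF and LCN2, which rose together in SW1990, and for ANXA10, which did not. They are the 250 bases before the start that RefSeq gives in GRCh38.p14, 5′ to 3′ on the strand of the gene, with motif matches in capitals. Such a window was given for 7 of the 10 genes, and its start need not be an end of the GRCh37 interval given above. The motifs searched, on both strands, were the TATA box (TATAAA), the CCAAT box, the forkhead pattern TGTTTNC and an NF-kB pattern that starts with GGG, ends with CC and has 5 bases of any kind between them.
AGR2 (chr7:16805000-16805249, minus strand): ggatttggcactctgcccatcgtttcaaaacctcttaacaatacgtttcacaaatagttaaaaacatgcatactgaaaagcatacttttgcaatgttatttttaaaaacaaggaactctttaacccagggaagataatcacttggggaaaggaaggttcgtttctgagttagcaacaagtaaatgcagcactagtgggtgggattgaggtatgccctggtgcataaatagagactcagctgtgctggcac
SPDEF (chr6:34556330-34556579, minus strand): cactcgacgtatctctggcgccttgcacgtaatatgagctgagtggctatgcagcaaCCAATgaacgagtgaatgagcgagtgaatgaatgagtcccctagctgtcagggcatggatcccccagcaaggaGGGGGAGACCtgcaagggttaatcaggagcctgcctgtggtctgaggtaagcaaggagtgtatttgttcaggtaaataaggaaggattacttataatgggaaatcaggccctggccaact
LCN2 (chr9:128149203-128149452, plus strand): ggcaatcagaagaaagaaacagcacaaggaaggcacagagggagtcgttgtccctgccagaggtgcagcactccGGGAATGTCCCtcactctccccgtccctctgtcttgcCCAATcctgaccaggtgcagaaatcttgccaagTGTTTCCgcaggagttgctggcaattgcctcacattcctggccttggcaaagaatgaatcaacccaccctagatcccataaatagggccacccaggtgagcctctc
ANXA10 (chr4:168092287-168092536, plus strand): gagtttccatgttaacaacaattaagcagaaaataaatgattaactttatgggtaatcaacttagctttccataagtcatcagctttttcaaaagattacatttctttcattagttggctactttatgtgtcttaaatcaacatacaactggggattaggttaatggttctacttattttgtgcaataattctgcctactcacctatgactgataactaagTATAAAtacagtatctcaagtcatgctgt
No motif searched was found in all of the windows shown. Outside the exact motifs, AGR2 and LCN2 both held cataaatag near the start. The cataaa in it differs from TATAAA only in its first base, and ataaata also overlaps the ANXA10 TATAAA match. LCN2 held CCAAT at 139 to 135 bases before the start, a forkhead match at 106 to 100 bases, and overlapping NF-kB matches on both strands between 176 and 166 bases. SPDEF held CCAAT at 193 to 189 bases and an NF-kB match at 120 to 111 bases, ANXA10 held TATAAA at 29 to 24 bases, and AGR2 held none of the 4 motifs. Of 35116 RefSeq windows of the same length, 10.7% held TATAAA, 32.0% CCAAT, 15.5% the forkhead pattern and 54.4% the NF-kB pattern. GC content was 40.4% for AGR2, 50.8% for SPDEF, 54.8% for LCN2 and 31.2% for ANXA10, against a median of 58% over all windows.

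Proteins that are secreted or act with these genes were described from lists. For these and the later lists, the shares over all genes were 4.59% called higher and 7.48% lower in positive SW1990 cells. In positive CFPAC-1 cells they were 5.65% and 4.13%. No list was tested against these shares. Of 9 mucin and mucus protein genes tested, 6 were higher and ZG16B was lower in positive SW1990 cells (median log2 change 1.65), and 3 were lower and none higher in positive CFPAC-1 cells (median -0.55). In SW1990, MUC20 rose by a log2 value of 4.69, MUC1 by 3.60 and MUC4 by 3.46. In CFPAC-1, MUC2 changed by -2.09, MUC5B by -1.96 and MUC4 by -1.23. MUC2, MUC4 and MUC5B were thus called in opposite directions, and the difference between lines was called for each.

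The 21 transcription factors of secretory lineages that were tested included 2 higher and 2 lower in positive SW1990 cells. Over all genes, 4.59% were called higher and 7.48% lower there. FOXA2 rose by 1.54 and ELF3 by 1.39 on the log2 scale, while CREB3L1 changed by -3.08 and GATA4 by -1.06. In CFPAC-1, HNF4A rose by 1.03, close to the 2-fold threshold, and CREB3L1, FOXA3 and HNF4G changed by -2.13, -1.56 and -1.50. The list of the disulphide isomerase family also held ERO1L and ERO1LB, which encode oxidases of its members. Of its 19 tested genes, AGR2 and AGR3 not included, ERP27 was higher (2.81) and TMX4 and ERO1LB lower (-1.78 and -1.10) in positive SW1990 cells. None was called in CFPAC-1, where the median log2 change was 0.14. Of 4 trefoil partners and receptors tested, the chemokine receptor gene CXCR4, reported to respond to TFF2, was lower in positive SW1990 cells (-3.44) and higher in positive CFPAC-1 cells (2.16), and DMBT1, a mucosal scavenger protein, was lower in positive CFPAC-1 cells (-4.53).

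Other lists touched single members. Their counts were small, beside shares over all genes of 4.59% higher and 7.48% lower in positive SW1990 cells. In CFPAC-1 these shares were 5.65% and 4.13%. Of 16 lipocalin and mucosal defence genes besides LCN2, WFDC2 was higher (4.07) and SLC22A17, proposed as an LCN2 receptor, and CXCL1 were lower in positive SW1990 cells (-2.54 and -2.53). In CFPAC-1, CXCL1 was higher (2.41), as were SAA2 (1.80) and SAA1 (1.75), near-identical genes that can share reads, and SLC22A17 (-1.43) and SLPI (-1.21) were lower. Of 11 annexin genes besides ANXA10, ANXA9 was higher (1.20) and ANXA6 lower (-1.79) in positive SW1990 cells, and ANXA13 lower in positive CFPAC-1 cells (-1.87). Of 3 genes with von Willebrand D domains like those of FCGBP, KCP was higher in both lines (3.37 and 1.67) and BMPER lower in positive SW1990 cells (-3.29). None of 4 genes of the regenerating family besides REG4 reached the level for testing. Next to the trefoil cluster, TMPRSS3 (1.80), SLC37A1 (1.44) and RSPH1 (1.21) were higher and ABCG1 (-1.90) lower in positive SW1990 cells, and RSPH1 was lower in positive CFPAC-1 cells (-1.58). Of 4 neighbours of AGR2 and AGR3, TSPAN13 was higher in positive SW1990 cells (1.98).

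The members were set beside lists of classical and basal-like pancreatic tumour genes, since several of them count as classical. Of 9 other classical genes tested, 4 were higher in positive SW1990 cells, CEACAM6 (3.45), CTSE (1.99), ST6GALNAC1 (1.72) and VSIG2 (1.60), and TSPAN8 was lower (-2.15), while in CFPAC-1 KRT20 alone was called, lower (-1.93). Of 24 basal-like genes, 14 were higher in positive SW1990 cells, led by SPRR1B (5.31), SPRR3 (4.84) and VGLL1 (4.78), and none was lower. In CFPAC-1, 6 were higher, led by KRT6A (4.60), SPRR3 (3.05) and CST6 (2.58), and SERPINB4, LEMD1 and SERPINB3 were lower (-3.13, -2.80 and -2.02). The median log2 change of the basal-like genes in SW1990 was 1.53. That of the classical genes, 0.03, was the change of PLA2G10, which was at most 0.0172 RPKM in either SW1990 group on average, and KRT20 was at 0 in all SW1990 samples, since both reached the level for testing only through CFPAC-1.

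**Figure D3:**
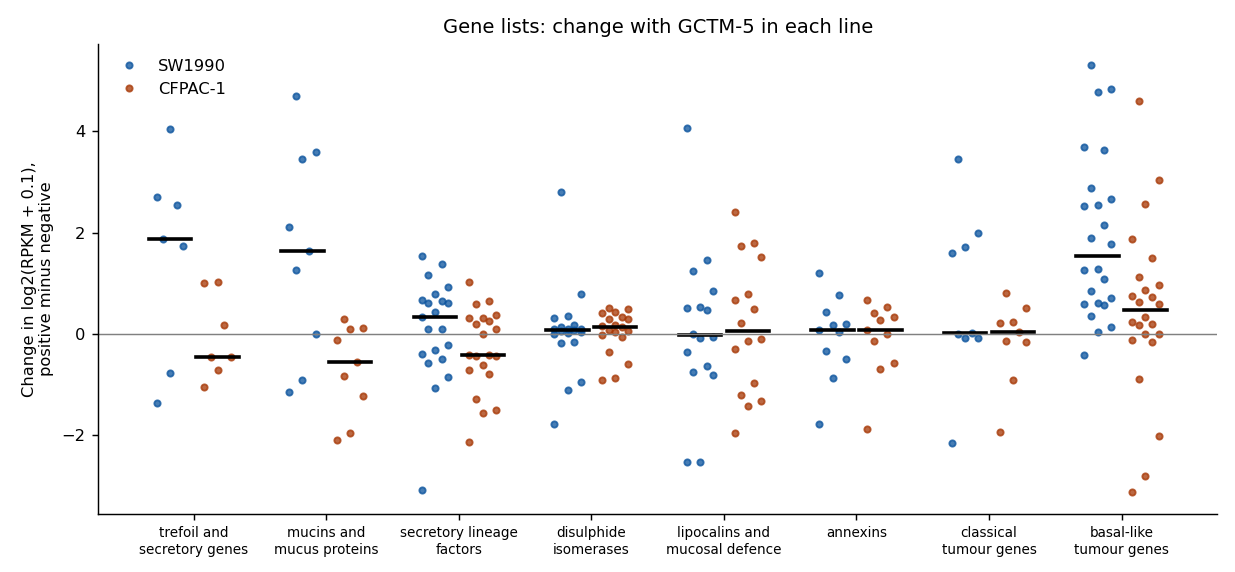
Change in log2(RPKM + 0.1) from GCTM-5 negative to positive cells for each tested gene of 8 lists, in SW1990 (blue) and CFPAC-1 (brown), with black bars at the list medians. The trefoil and secretory genes (1.87) and the mucins (1.65) have medians above 0 in SW1990 and below 0 in CFPAC-1 (-0.45 and -0.55).

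Markers of cell state moved with the sort. Of 6 duct epithelium markers tested, 5 were higher in positive SW1990 cells (CDH1, EPCAM, KRT19, KRT8 and KRT18) and none was called in CFPAC-1. The summed level of the list was 1595 to 1942 RPKM in negative and 4360 to 4841 RPKM in positive SW1990 samples. In CFPAC-1 this sum was 5411 to 6173 RPKM in negative and 6676 to 8162 RPKM in positive samples. KRT7, KRT8 and KRT18 rose there by 0.86, 0.70 and 0.70 (adjusted p = 0.00566, 0.00649 and 0.00103, limma), under the fold change threshold. CDH1, EPCAM and KRT19 changed there by 0.31, -0.08 and -0.14. Of 6 mesenchymal markers, 4 were lower in positive SW1990 cells (ZEB1, VIM, CDH2 and FN1). In CFPAC-1, ZEB1 was lower in positive cells too (-1.39) and TWIST2 higher (1.28). The summed mesenchymal level, carried mostly by VIM, was 1219 to 1400 RPKM in negative and 217 to 404 RPKM in positive SW1990 samples, with TWIST1 and TWIST2 at 0. The same sums in CFPAC-1 were 558 to 760 and 429 to 603 RPKM. Fibroblast markers summed to 12.9 to 22.9 RPKM in negative and 3.90 to 4.88 RPKM in positive SW1990 samples, LUM and PDGFRB were called lower, and THY1 was at 0. Leukocyte markers summed to 35.6 to 49.9 and 16.2 to 34.7 RPKM in the same groups, mostly from CD68, with CD3E at 0. Of 3 leukocyte markers tested, CD68 (-1.02) and CD14 (-1.97) were lower in positive SW1990 cells, and CD14 (-1.54) in positive CFPAC-1 cells. In CFPAC-1 leukocyte markers summed to 179 to 210 RPKM in negative and 163 to 228 RPKM in positive samples, mostly from CD68 and LYZ. Acinar and endocrine markers summed to at most 0.663 RPKM in any sample. The part of these differences in the changes of the trefoil and secretory genes was not tested.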

How the data were processed

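RNA was sequenced from 3 samples of GCTM-5 positive and 3 of GCTM-5 negative cells of each line, from triplicate sorts. Reads were aligned by the authors to hg19 (GRCh37), and the deposited values are their QuasR RPKM, obtained by dividing read counts by library size and gene length. The gene annotation, strandedness of counting, treatment of multimapping reads and QuasR version are not given in the sources used here, and the study's methods name a TruSeq kit where the labels name a strand-specific kit. Library totals were recovered from single-exon gene lengths (GENCODE 44 mapped to GRCh37), after which all 19654 genes above 0 gave whole reads to within 0.01 of a read. For genes above 0 in few samples, such as AGR3 and REG4 with 3 each, a length that gives whole reads can be found by chance. The simulated test of the recovery did not score genes above 0 in so few samples.

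The 16236 of 23346 genes that averaged 0.1 RPKM or more were fitted as log2(RPKM + 0.1) in R 4.3.3 with limma 3.58.1, with 4 group means, an intensity trend and 2-sided tests. The study names TCC, a count test, which was not used on RPKM. Within and between lines, calls needed over 2-fold and an unadjusted p under 0.01. The difference of the changes needed an adjusted p under 0.05. The fit and the read recovery were tested on simulated data. Named genes are all members, at most 3 called higher and 3 lower per list and line, further genes where a list had 5 or fewer calls in a direction, and the 3 genes most like each member at a mean of at least 1 RPKM. The members and lists were chosen with earlier results of these data known. A total of 22 alternatives were planned, and voom on the recovered reads was added after seeing the data. Values were summarised in Python 3.11.15 (scipy 1.17.1, numpy 2.4.6, pandas 2.3.3) and drawn with matplotlib 3.10.9.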

Additional observations from a re-analysis of the deposited data

Results flagged for a closer look

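The change from GCTM-5 negative to positive cells differed between SW1990 and CFPAC-1 for 6 genes, by a test of the difference itself (limma, adjusted p under 0.05 over all genes tested). The difference of the log2 changes, SW1990 minus CFPAC-1, was 3.03 for TFF1, 2.32 for TFF2, 2.51 for AGR2, 2.99 for SPDEF, 2.47 for LCN2 and -1.81 for ANXA10. For TFF2, SPDEF and LCN2, the 3 positive samples were each above the 3 negative ones in SW1990 and each below them in CFPAC-1. None of these CFPAC-1 changes was called (-0.45, -0.45 and -0.72, adjusted p = 0.22, 0.0489 and 0.0399, limma). For ANXA10 the positive samples lay below in SW1990, on 6 reads in all and without a call, and above in CFPAC-1. Over all genes, 43.3% did not overlap in SW1990 and 48.5% in CFPAC-1. AGR2 rose in SW1990, and its CFPAC-1 groups overlapped. TFF1 was called higher in both lines, and its difference depends on the value added before taking log2, because the negative SW1990 samples had no reads.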

How the results depend on the processing

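The 5 genes called in SW1990, the 6 differences of the changes, and the 6 and 3 genes called between lines in negative and positive cells were called under every alternative that gave them a value, voom included. The CFPAC-1 count of 2 was less stable. It was 1 with a pseudocount of 1 (ANXA10) or of 0.01 (TFF1), 0 with median centring and 0 with quantile normalization, and 0 to 2 over the fits without 1 sample, with 0 without CFPAC-1 negative replicate 1 and 1 without positive replicate 2 or 3. The cause was not tested. Centring moved the genes called in CFPAC-1 from 917 higher and 671 lower to 724 and 858, and those of the difference from 1487 and 2887 to 1987 and 1988. The TFF1 change in SW1990 was 1.36 with a pseudocount of 1 and 7.28 with 0.01, and that of TFF2 1.07 with a pseudocount of 1. The ANXA10 difference of the changes ran from -2.39 (pseudocount of 0.01) to -1.17 (pseudocount of 1). FCGBP changed sign where it was not called: over the fits without 1 sample, its difference of the changes ranged from -0.72 to 0.060, above 0 without SW1990 negative replicate 3 (0.054), SW1990 positive replicate 1 or CFPAC-1 positive replicate 3 (0.018). Its difference between negative cells was 0.017 with a pseudocount of 1 and ranged from -0.40 to 0.38 over the fits without 1 sample, above 0 without SW1990 negative replicate 1 or CFPAC-1 negative replicate 1 (0.090). Between positive cells it ranged from -0.67 to 0.027, above 0 without SW1990 positive replicate 1. Same-numbered samples had correlations of deviations of 0.18, 0.02 and 0.12 in SW1990 and -0.02, 0.00 and -0.06 in CFPAC-1, so the numbers were not taken as pairs. With so few samples per group, such correlations cannot decide whether same-numbered samples shared a sort. With the replicate block, 6 genes were called in SW1990 (FCGBP added, -1.37) and 2 in CFPAC-1. Voom called 6 in SW1990 and 2 in CFPAC-1 (ANXA10 and FCGBP), and 782 higher and 1324 lower genes in SW1990 and 979 and 742 in CFPAC-1. At a mean RPKM of at least 1, FCGBP was not tested. TFF3, AGR3 and REG4 were limited by depth.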
